A study of Danio rerio with 6 samples.

Results

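Potassium channel genes were taken from the RNA-seq table of adult zebrafish retina as every gene symbol that begins with kcn or hcn. The rule found 59 of the 14781 genes in the table, and all 59 were kcn genes. With 0 hcn symbols found, the HCN channels, which carry the hyperpolarisation-activated current of photoreceptors, were not analysed here, nor was kcnv2a. Also absent from the 59 were the kcnb genes, which encode Kv2 channels, and kcnj10 genes, which encode the Kir4.1 inward rectifier of Müller glia. All 59 names were found as symbols or synonyms in RefSeq (assembly GRCz12tu), whose table lists 130 protein-coding kcn genes and 7 hcn genes. The members fell into 13 subfamilies by symbol.

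There were 3 wild-type libraries and 3 from fish homozygous for the stl888 allele of samd7, whose protein carries a SAM domain, is made in photoreceptors and binds Polycomb repressive complexes in mammals. The fish were males of 3 months, offspring of heterozygous parents, and the retinas of both eyes of 1 fish made 1 library. The labels give the mutant group as samd7-/- and no treatment for either group. Whole retina was sampled, so every value pools all retinal cell types and any adhering pigment epithelium. The study's title concerns photoreceptor identity, and the comparison asks here which potassium channel genes differed between mutant and wild-type retina.

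Potassium channels set the resting potential of a cell and end its electrical signals. Kv channels open on depolarisation and are tetramers, so that subunits of a family can be mixed, and the "silent" subunits (the F, G, S and V families) form no channel alone but modify the Kv2 channels that they join. Inward rectifiers and two-pore channels hold the resting potential, and BK and SK channels respond to calcium. In mammalian photoreceptors the silent subunit encoded by KCNV2 joins Kv2 channels in the inner segment, where they carry a current that opposes the dark current, and loss of KCNV2 in humans causes a cone dystrophy with altered rod responses.

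Values are normalised read counts, that is, counts of reads in a gene after the authors' division by a size factor of the library. The libraries held 20186266 to 29117026 reads in genes. Log2 changes give mutant minus wild type for log2(value + 1), which understates changes of low genes, and means are given ± SD with n = 3 fish per genotype. Adjusted p values come from limma, adjusted by Benjamini-Hochberg over the 11335 genes that reached a value of 10 in at least 3 libraries, and the threshold was 0.05. The samd7 transcript was at 4646 ± 501 in wild type and 3745 ± 1328 in mutants, and its ranges overlapped, so its level did not check the labels. Markers of retinal cells were present, with summed rod markers of 542295 to 2982710 and summed Müller glia markers of 267017 to 315197, while summed skeletal muscle markers were 62.6 to 97.3.

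Among the potassium channel genes one, kcnv2b, was called lower in mutants and none was called higher. Of the 59 genes 41 passed the filter on low values. The single call among them stands beside 2.61% of all genes tested, the single lower call beside 1.78% and the 0 higher calls beside 0.829%, so the number of calls among the channels was close to the background. The quasi-likelihood test of edgeR also called 1 channel gene, beside 2.25% of all genes, and DESeq2 called 2, beside 10.2%. Unadjusted p was under 0.05 for 7 of the 41, beside 21.0% of all genes. Log2 changes were above 0 for 26 of the 41 channel genes, beside 51.6% of all genes, with a median of 0.21 beside 0.01. Library totals as the scaling moved the median of all genes to 0.36 and put 37 of the 41 channel genes above 0. That scaling put 83.3% of all genes above 0. The genotypes did not overlap for 7 genes that were higher and 1 that was lower in mutants, beside 13.3% and 14.8% of all genes. The median SE was 0.28 for the channel genes and 0.19 for all genes, and the 95% interval of the change lay within 1 log2 unit of 0 for 17 of the 41. For the other 24 the interval reached beyond a 2-fold change.

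**Figure D1:**
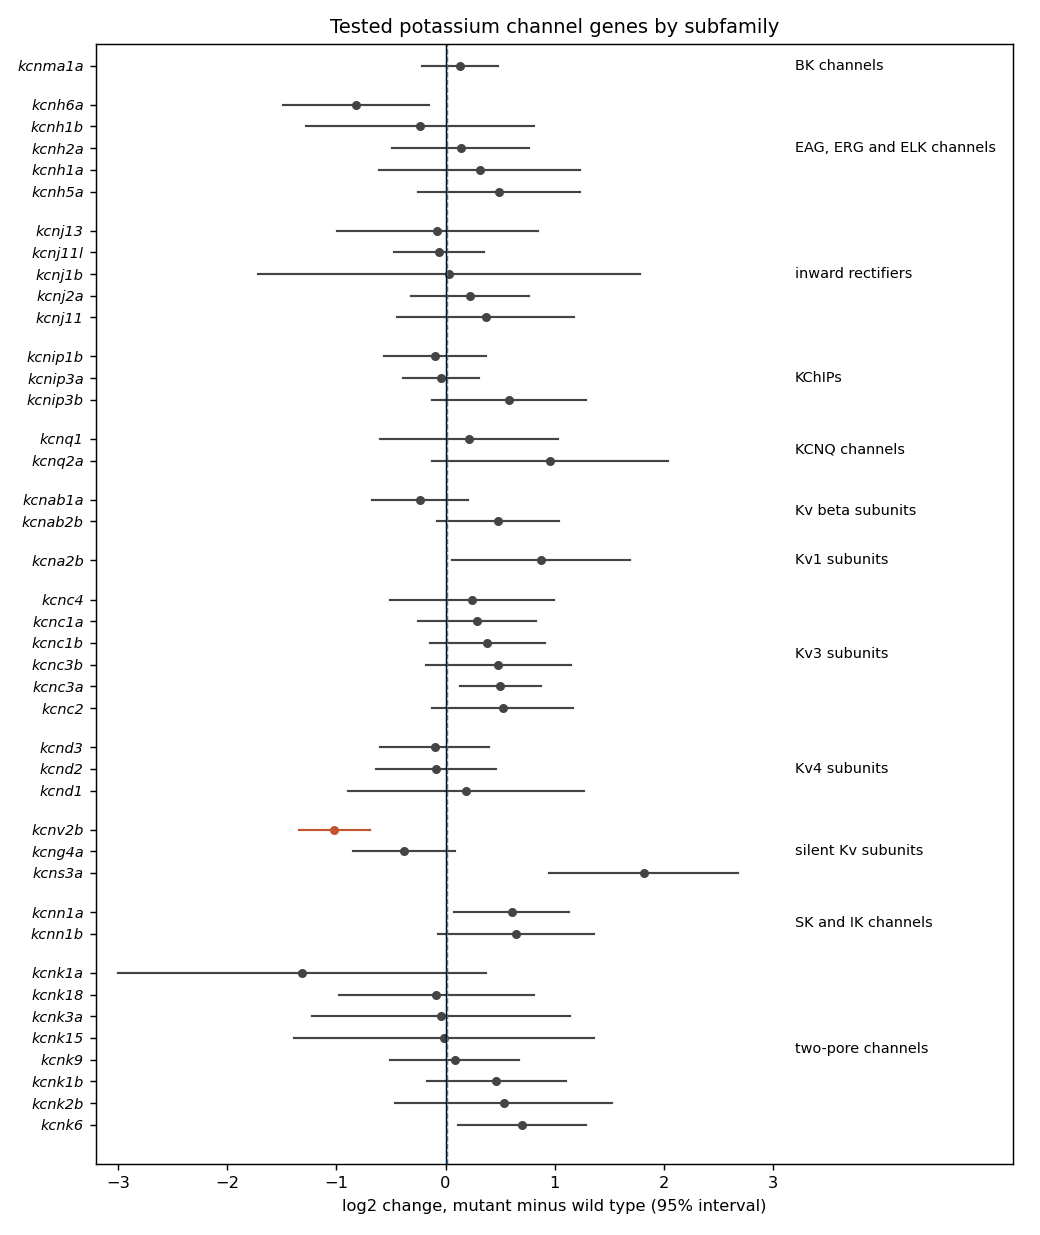
Log2 change of the 41 tested potassium channel genes, mutant minus wild type, with 95% intervals from limma, grouped by subfamily. The orange gene, kcnv2b, is the one that passed the threshold (log2 change -1.02), all 6 Kv3 genes lie to the right of 0, and the dashed line is the median of all genes tested (0.01).

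The silent subunit gene kcnv2b, which encodes a subunit of the KCNV2 (Kv8.2) type, fell in all 3 mutants. Wild-type replicates 1, 2 and 3 held 12911, 17890 and 14231 normalised reads, and mutant replicates 1, 2 and 3 held 7325, 7122 and 7549. The genotypes did not overlap, and the mutants lay closer together than the wild-type fish. The mean fell from 15011 ± 2580 to 7332 ± 214, which was 2.05-fold lower (log2 change -1.02, SE 0.14, 95% interval -1.35 to -0.69, adjusted p = 0.0244). The direction was the same in all 16 alternatives, with changes of -1.12 to -0.67. Leaving out a library could not turn it, since the genotypes did not overlap. A changed filter, trend or block left the change itself as it was. The adjusted p was under 0.05 in 10 of the 16, with a range of 5.35e-08 to 0.146. It did not pass when wild-type replicate 2 was left out (adjusted p = 0.0778), nor without wild-type replicate 3 (0.0659), mutant replicate 1 (0.127), mutant replicate 3 (0.146) or, just above the threshold, mutant replicate 2, nor in limma without a mean-variance trend (0.0602). In the authors' deposited table the same gene had a log2 fold change of -1.03 and an adjusted p of 5.36e-08.

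Most photoreceptor markers had a negative log2 change beside kcnv2b, though not all. Of 15 tested cone markers 8 were called lower and 1 higher, with a median log2 change of -1.36. Their summed levels were 2059490 to 2982390 in wild type and 1626480 to 1838760 in mutants. The 8 were gnat2, gngt2a, arr3a, opn1lw2 and the opsin series from opn1mw1 to opn1mw4. The count of 8 thus rests in large part on a single opsin series. Of that series opn1mw1, opn1mw3 and opn1mw4 held 0 to 8.46 in mutants and passed the filter through wild type alone. The one called higher was opn1sw1, the ultraviolet cone opsin, with a log2 change of 1.60, and 3 of the 15 cone markers had a change above 0. Of 9 tested rod markers 1, nrl, was called lower and 1 had a change above 0, with a median of -1.05. The rod sums overlapped, at 1845750 to 2982710 in wild type and 542295, 1987710 and 1571850 in mutant replicates 1, 2 and 3. The median deviation of the rod markers from the mean of the 6 fish was -1.44, 0.34 and -0.38 in these mutants on the log2 scale. The low rod values were thus most marked in mutant replicate 1 and not shared evenly by the mutants. No marker of either list was at 0 in all 6 libraries, and the part of either cell type in the kcnv2b result was not tested. Whether the level of kcnv2b separated the genotypes when set against a photoreceptor marker differed from marker to marker. The normalised reads of kcnv2b for every 100 of the marker were taken for the 12 tested cone markers above 0 in every library. The 3 left out, opn1mw1, opn1mw3 and opn1mw4, were at 0 in mutants only. The ratio was lower in all mutants for 2, higher in all mutants for 3 and overlapped for 7. The 2 were opn1sw1 and opn1sw2, both higher in every mutant. The 3 were opn1mw2, opn1lw2 and arr3a, all called lower. Each ratio thus carries the change of its marker as well as that of kcnv2b. Against opn1sw1 there were 9.09, 11.7 and 7.03 in wild type and 1.63, 1.52 and 1.29 in mutants, without overlap. Against gnat2, the transducin alpha subunit of cones, there were 4.47, 8.02 and 6.35 in wild type and 6.45, 6.48 and 7.43 in mutants, which overlapped. Against the sum of the cone markers there were 0.627, 0.629 and 0.477 in wild type and 0.450, 0.414 and 0.411 in mutants. All mutants lay below wild type. That sum includes opn1sw1 and opn1sw2, 2 of the 3 cone markers with a change above 0. They held 142032 to 202375 and 203769 to 329920 in wild type and 448229 to 583283 and 432434 to 616393 in mutants. These opsins are thus a large part of the mutant sums, and the ratio without them was not computed. For the 9 rod markers the ratio was lower in all mutants for 1 and overlapped for 8. In whole retina, fewer cells of a type and less RNA per cell cannot be told apart.

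**Figure D2:**
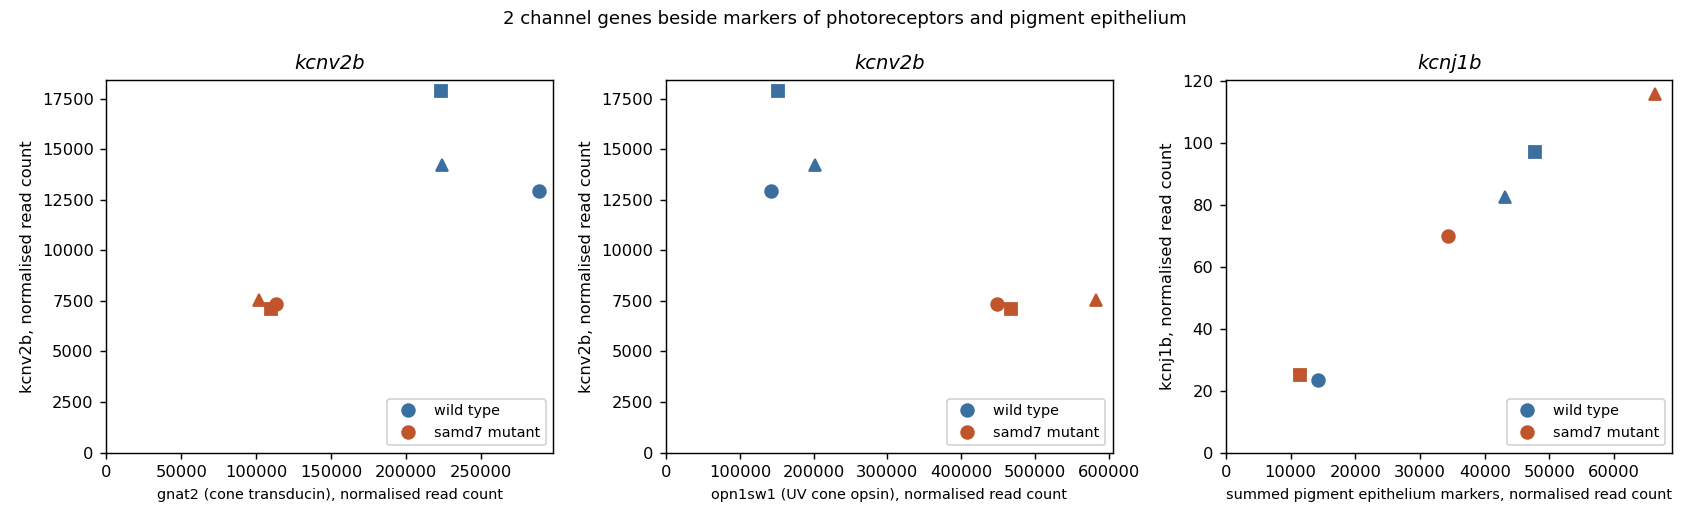
Normalised read counts of kcnv2b beside the cone markers gnat2 (left) and opn1sw1 (middle) and of kcnj1b beside the summed markers of pigment epithelium (right), 1 point per fish (circle, square and triangle are replicates 1, 2 and 3). The mutants are low in both kcnv2b and gnat2 but high in opn1sw1, and kcnj1b is spread along the pigment epithelium markers within each genotype.

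The silent subunit gene kcns3a (Kv9.3 type) had the largest positive change of the tested channel genes but missed the threshold. Its level was 29.8, 15.1 and 23.0 in the wild-type fish, in the order of their replicate numbers, and 81.2, 107 and 57.5 in mutants. The lowest mutant was above the highest wild-type fish. The means were 22.6 ± 7.36 and 81.8 ± 24.6, a ratio of 3.62 (log2 change 1.82, SE 0.37, 95% interval 0.95 to 2.68, adjusted p = 0.0543). It passed in 3 of 16 alternatives, which were scaling by library totals (adjusted p = 0.0225), the count test of DESeq2 (0.000372) and leaving out wild-type replicate 1 (0.0487), over a range of 0.000372 to 0.207. These values rest on 324 reads over the 6 libraries. In the authors' deposited table kcns3a and kcnv2b were the 2 of 43 channel genes with an adjusted p under 0.05, beside 10.2% of the genes with an adjusted p in that table.

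The third tested silent subunit, kcng4a (Kv6.4 type), was at 1263, 1029 and 878 in wild type and 965, 853 and 632 in mutants. The ranges overlapped (log2 change -0.38, SE 0.20, adjusted p = 0.331). The silent subunit genes kcnf1a, kcng1 and kcns3b did not pass the filter, with at most 18 reads each over all libraries.

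**Figure D3:**
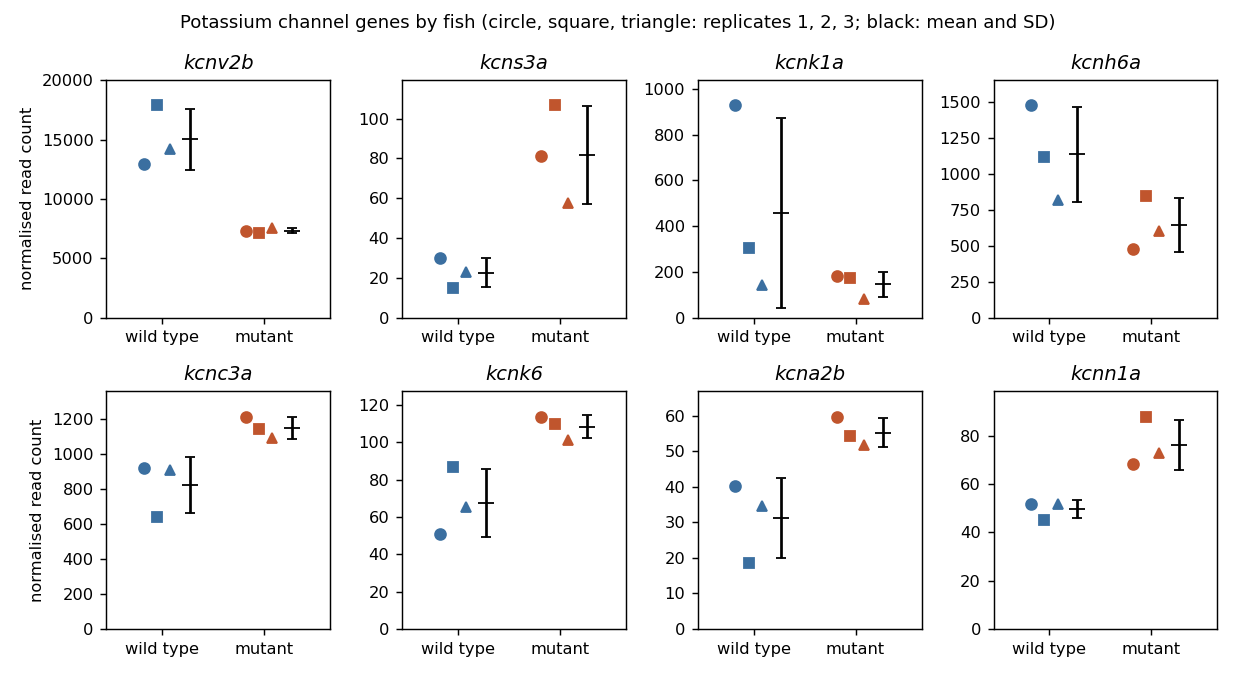
Normalised read counts of 8 potassium channel genes in each fish, with the mean and SD of each genotype in black, on axes that start at 0. In kcnv2b all mutants lie below all wild-type fish, in kcns3a, kcnc3a, kcnk6, kcna2b and kcnn1a all lie above, and in kcnk1a and kcnh6a the genotypes overlap. The 8 genes were picked for display. Of all 41 tested channel genes 19.5% were without overlap, beside 28.1% of all genes tested.

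Kv1 and Kv3 genes encode channels of neurons that sit along axons (Kv1) or allow fast repetitive firing (Kv3), and none of these genes passed the threshold. All 6 Kv3 genes in the table were tested, and all 6 had a positive log2 change, between 0.24 and 0.52, with a median of 0.43. The 6 stayed above 0 under each of the 16 alternatives, except that only 5 were tested with a filter of 50. A changed filter, trend or block left each change as it was, so these alternatives could not turn a sign. The library-total scaling moved the median of all genes to 0.36 and that of the Kv3 genes to 0.78. Without wild-type replicate 2 the Kv3 median was 0.25, and the change of kcnc2 was 0.31 in place of 0.52 and that of kcnc3a 0.33 in place of 0.50.

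The Kv3 gene with the smallest p was kcnc3a, at 915, 639 and 909 in wild type and 1212, 1142 and 1089 in mutants. All mutants were above all wild-type fish, by 1.40-fold in the means (log2 change 0.50, SE 0.16, 95% interval 0.13 to 0.87, adjusted p = 0.140). It passed under the library-total scaling alone (adjusted p = 0.0290, range over the alternatives 0.0290 to 0.360). For kcnc2 the values were 84.9, 57.9 and 98.8 in wild type and 90.5, 121 and 133 in mutants, which overlapped (log2 change 0.52, adjusted p = 0.330). For kcnc1a, kcnc1b, kcnc3b and kcnc4 the adjusted p was between 0.373 and 0.715. The only tested Kv1 gene was kcna2b (Kv1.2 type), at 40.3, 18.5 and 34.5 in wild type and 59.7, 54.4 and 51.6 in mutants. These did not overlap, yet the gene did not pass (log2 change 0.88, SE 0.34, adjusted p = 0.213).

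Among KCNQ channels, which carry slow currents that damp firing, kcnq2a was at 35.0, 16.2 and 56.3 in wild type and 54.1, 61.7 and 74.5 in mutants. Mutant replicate 1 lay below wild-type replicate 3, and the gene did not pass (log2 change 0.96, SE 0.46, adjusted p = 0.289). The values of kcnq1 were 148, 341 and 361 in wild type and 287, 303 and 327 in mutants. Here wild-type replicate 1 alone was low, and without it the sign turned, from 0.21 to -0.20 (adjusted p = 0.766 and 0.427, range over the alternatives 0.230 to 0.904).

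None of 10 tested markers of retinal ganglion cells was called. Of these, 6 were without overlap and higher in mutants, beside 13.3% of all genes tested, and 4 overlapped. The summed level of this list was 23671, 15053 and 19612 in wild type and 29121, 26074 and 25992 in mutants, with a median log2 change of 0.68, and 1 of the 11 markers in the table was at 0 in all libraries. Wild-type replicate 2 was lowest in the sum of these markers and also lowest of the 6 fish in kcnc3a, kcnc3b, kcnc1a, kcnc1b, kcnc2, kcna2b and kcnq2a. This was not particular to these subfamilies, since it was also lowest of the 6 in kcnma1a, kcnj11 and kcnd1, among others. It was the lowest of the 3 wild-type fish in 21 of the 41 tested channel genes, beside 30.9% of all genes tested. The part of these cells in the channel values was not tested. Summed bipolar markers were 70642 to 114776 in wild type and 90337 to 111433 in mutants, and summed amacrine markers 39233 to 56133 and 37892 to 45238.

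No gene of the A-type current passed the threshold among the 3 Kv4 and 3 KChIP genes tested. Their 95% intervals lay within 1 log2 unit of 0 for 2 of the 3 in each family, beside 66.9% of all genes tested. Kv4 channels carry this fast-inactivating current, and KChIPs are calcium-binding proteins that join them. Kv4 gene kcnd3 was at 2900, 2692 and 1972 in wild type and 2571, 2710 and 1792 in mutants (log2 change -0.10, 95% interval -0.60 to 0.40, adjusted p = 0.823). For kcnd2 the change was -0.09, with an interval of -0.64 to 0.46. The values of kcnd1 spread more, with 1863 in wild-type replicate 1 against 568 and 852 in the other wild-type fish and 862 to 1502 in mutants, and its interval was -0.89 to 1.27.

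The KChIP gene kcnip3a, whose mammalian counterpart is also known as calsenilin or DREAM, was at 9707, 8575 and 7397 in wild type and 8877, 9006 and 7117 in mutants. Its change was -0.04 on the log2 scale with an interval of -0.39 to 0.31. For kcnip1b the interval was -0.56 to 0.37. The paralog kcnip3b was at 1957, 921 and 1217 in wild type and 2448, 1826 and 1656 in mutants, which overlapped (log2 change 0.58, interval -0.12 to 1.29, adjusted p = 0.318). Both tested Kv beta subunit genes, whose products bind Kv1 channels inside the cell, missed the threshold. The change was -0.23 for kcnab1a and 0.48 for kcnab2b (adjusted p = 0.515 and 0.299).

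Of the 5 EAG and ERG channel genes kcnh6a had the largest change in size. It belongs to the ERG type, which repolarises the heart in zebrafish. The values were 1476, 1117 and 815 in wild type and 480, 846 and 603 in mutants, where mutant replicate 2 lay above wild-type replicate 3. With a log2 change of -0.82 (SE 0.28, 95% interval -1.49 to -0.15, adjusted p = 0.171) it did not pass. It kept its sign in all 16 alternatives, with adjusted p between 0.0586 and 0.398. Some of these, such as another filter, left the change itself as it was. The EAG genes kcnh1a, kcnh1b and kcnh5a held 18.5 to 69.1 in all libraries. Their changes were 0.31, -0.23 and 0.49, with adjusted p of 0.418 to 0.805. The other ERG gene, kcnh2a, changed by 0.14 (adjusted p = 0.807). No ELK gene was among the 5.

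SK channels open on a rise in calcium and follow an action potential with hyperpolarisation. Both SK genes in the table, the paralogs kcnn1a and kcnn1b, were higher in every mutant than in every wild-type fish. The same held for 13.3% of all genes tested. The values of kcnn1a were 51.6, 45.2 and 51.7 in wild type and 68.1, 87.9 and 72.8 in mutants (log2 change 0.61, SE 0.22, adjusted p = 0.187). Those of its paralog kcnn1b were 15.8, 18.5 and 21.8 and 28.0, 30.3 and 30.5 (log2 change 0.65, SE 0.30, adjusted p = 0.283). Neither passed the threshold, and kcnn1a did so in 1 alternative, library totals as the scaling (adjusted p = 0.0372, range 0.0372 to 0.387). The BK channel gene kcnma1a was at 1484, 1345 and 1737 in wild type and 1397, 1848 and 1783 in mutants, which overlapped (log2 change 0.14, 95% interval -0.21 to 0.49, adjusted p = 0.646).

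Inward rectifiers did not separate the genotypes in any of the 5 tested genes, whose adjusted p was 0.587 or more. Kir6.2-type kcnj11, the pore of ATP-sensitive channels, was at 77.9, 34.8 and 66.6 in wild type and 76.5, 62.8 and 82.1 in mutants (log2 change 0.37, adjusted p = 0.587). For kcnj11l, which RefSeq also names zKir6.2, the change was -0.06 with an interval of -0.48 to 0.35. The sequences of these paralogs were not compared, and how the reads were shared out between them is uncertain. Kir2.1-type kcnj2a was at 494, 389 and 276 in wild type and 514, 417 and 396 in mutants (log2 change 0.23, adjusted p = 0.620).

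Kir7.1-type kcnj13, a channel of the pigment epithelium in mammals, was at 93.6, 40.5 and 39.1 in wild type and 42.0, 53.4 and 56.7 in mutants. The change was -0.07 (adjusted p = 0.936) and turned to 0.33 without wild-type replicate 1. The ROMK-type kcnj1b was at 23.6, 97.3 and 82.7 in wild type and 70.0, 25.1 and 116 in mutants (log2 change 0.03, SE 0.73), and the change turned to -0.59 without wild-type replicate 1. Its spread within each genotype ran with pigment epithelium markers, a relation that was chosen after its values were seen. The summed level of the 10 such markers in the table was 14214, 47832 and 43067 in wild type and 34311, 11429 and 66274 in mutants. For both quantities wild-type replicate 1 and mutant replicate 2 were the low libraries and mutant replicate 3 was the highest. Of the 9 tested markers none was called, their median change was -0.18, and no marker was at 0 in all libraries. The gene kcnj13 did not follow that order, as it was highest in wild-type replicate 1.

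Two-pore channels, which pass the resting leak current, gave changes in both directions, with 4 of 8 tested genes above 0 and none called. TWIK-type kcnk6 was at 50.8, 86.9 and 65.5 in wild type and 114, 110 and 102 in mutants, without overlap (log2 change 0.70, SE 0.25, adjusted p = 0.176). TWIK-type kcnk1a had the largest negative change of the tested channel genes (log2 change -1.31, SE 0.70, 95% interval -2.999 to 0.37, adjusted p = 0.344). That size rested on 1 library, since the wild-type fish held 929, 305 and 141 and the mutants 182, 173 and 82.1. Without wild-type replicate 1 the change was -0.59, with an adjusted p of 0.511 (range over the alternatives 0.0645 to 0.628).

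The paralog kcnk1b was at 29.8, 23.2 and 25.3 in wild type and 36.4, 36.6 and 35.5 in mutants, where the genotypes did not overlap (log2 change 0.47, adjusted p = 0.374). TASK-type kcnk3a and kcnk9 and TRESK-type kcnk18 had changes of -0.04, 0.08 and -0.09, and TREK-type kcnk2b of 0.53 (adjusted p = 0.515).

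**Figure D4:**
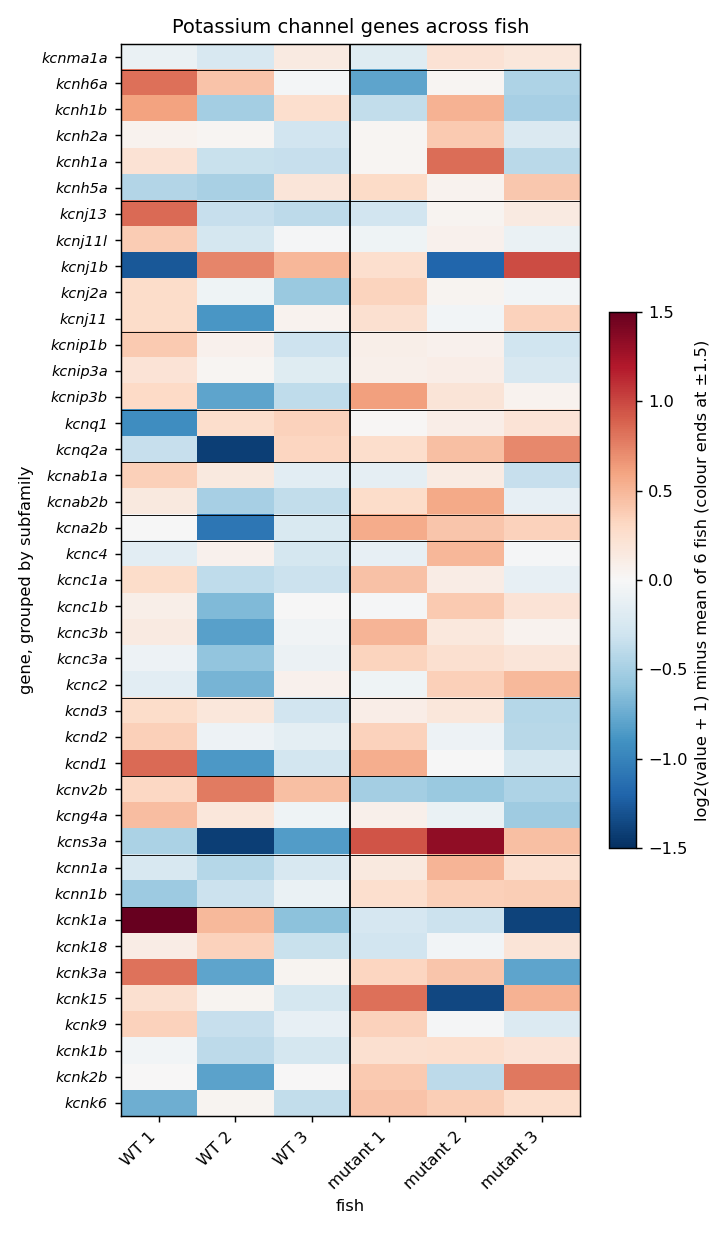
Level of the 41 tested potassium channel genes in each fish, as log2(value + 1) minus the mean of the 6 fish, with blue below and red above that mean. Rows are grouped by subfamily, and the column of wild-type replicate 2 is blue in all Kv3 genes but kcnc4, while kcnj1b is low in wild-type replicate 1 and mutant replicate 2.

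Gene pairs were matched by symbols that differ only by a final a or b, as is usual for paralogs left by the genome duplication of teleost fish. The origin of each pair was not checked. The pairs allowed a test of unequal responses, on the log2 ratio of the a gene to the b gene. Of the 1111 pairs tested, 22 were called, or 1.98%, and of the 6 channel pairs 0 were called, with 2 under an unadjusted p of 0.05 (limma), beside 17.6% of all pairs. The ratio of kcnip3a to kcnip3b was 2.31, 3.22 and 2.60 on the log2 scale in wild type and 1.86, 2.30 and 2.103 in mutants. All mutants lay below all wild-type fish, mutant replicate 2 only just (log2 ratio change -0.62, SE 0.26, adjusted p = 0.264). For kcnk1a and kcnk1b the ratio was 4.92, 3.66 and 2.44 in wild type and 2.29, 2.21 and 1.19 in mutants (log2 ratio change -1.78, SE 0.68, adjusted p = 0.237). The ratio of kcnc3a to kcnc3b changed by 0.02 (SE 0.21), that of kcnn1a to kcnn1b by -0.04 (SE 0.35) and that of kcnc1a to kcnc1b by -0.10 (SE 0.28), each less than its SE. For kcnh1a and kcnh1b the ratio changed by 0.55 (SE 0.37, adjusted p = 0.476).

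A total of 18 channel genes did not pass the filter, with values of at most 12.3 in any library. The tandem ROMK-type genes kcnj1a.1 to kcnj1a.6 held 7 reads in all, and kcnj1a.2, kcnj1a.4 and kcnj1a.6 held 0 in all 6 libraries. At a floor of 3 reads per library, a count of 0 allows a normalised level of up to 2.54 to 3.48, which covers counting error only. In the RefSeq table the 6 genes neighbour each other with 0 other coding genes between them. Their sequences were not compared, and the share of reads counted for each is uncertain. The Kir6.1-type kcnj8, a channel of pericytes in mammals, was at 1.69 to 9.34. The pericyte marker pdgfrb was at 0 in all libraries, but it was the only 1 of the 9 endothelium and pericyte markers in the table that was. The summed markers of that list were 747 to 907 in wild type and 705 to 810 in mutants, with notch3 at 117 to 203. Whether pericytes were present was not tested. The TASK-type kcnk5a was the one gene of the 18 without overlap, at 12.3, 9.27 and 6.89 in wild type and 3.73, 2.09 and 3.39 in mutants. It rested on 38 reads and was not tested in the fit reported here.

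The other genes that work with potassium channels were listed by function, 66 in all, of which 35 were in the table and 32 were tested. One of these was called, atp1b2b, a beta subunit of the sodium-potassium pump that builds the potassium gradient, and it was lower. That count of 1 stands beside 2.61% of all genes called, so it was close to the background. It was at 106668, 73772 and 66522 in wild type and 32417, 40735 and 28937 in mutants. The genotypes did not overlap, and the mean was 2.42-fold lower (log2 change -1.26, SE 0.22, adjusted p = 0.0414). With each single library left out, other than wild-type replicate 1, no partner gene was called.

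The pump's alpha subunit gene atp1a3b, of the neuronal type, was at 114046, 126243 and 138989 in wild type and 73878, 99698 and 78472 in mutants, without overlap but above the threshold (log2 change -0.60, SE 0.16, adjusted p = 0.105). Of the 12 tested pump genes 1 was called and the median change was -0.04. Among 5 tested partners of the Müller glial inward rectifier, the water channel aqp4 was at 1178 to 1280 in wild type and 1148 to 1367 in mutants (log2 change 0.01). None of the 2 sulfonylurea receptor genes, 3 Kv2 partners, 2 HCN partners and 8 axonal Kv1 partners tested was called. The Kv2, HCN and Kir4.1 channel genes themselves were not among the genes analysed.

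Among wild-type fish the channel genes were spread unevenly over the libraries. Wild-type replicate 1 was the highest of the 3 in 28 of the 41 tested channel genes, or 68.3%, against 39.0% of all genes tested. Wild-type replicate 2 was the lowest in 21, or 51.2%, against 30.9% of all genes, and mutant replicate 3 the lowest of the mutants in 24, or 58.5%, against 32.6%. The median deviation of the 41 genes from their wild-type mean was 0.27, -0.17 and -0.06 on the log2 scale in wild type and 0.30, 0.25 and 0.12 in mutants. Wild-type replicate 1 thus lay above mutant replicates 2 and 3, and the genotypes overlapped in this median. The median coefficient of variation of the channel genes was 25.7% in wild type and 17.6% in mutants, beside 16.3% and 12.2% for all genes. It was larger in wild type for 29 of the 41, or 70.7%, beside 62.3% of all genes.

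**Figure D5:**
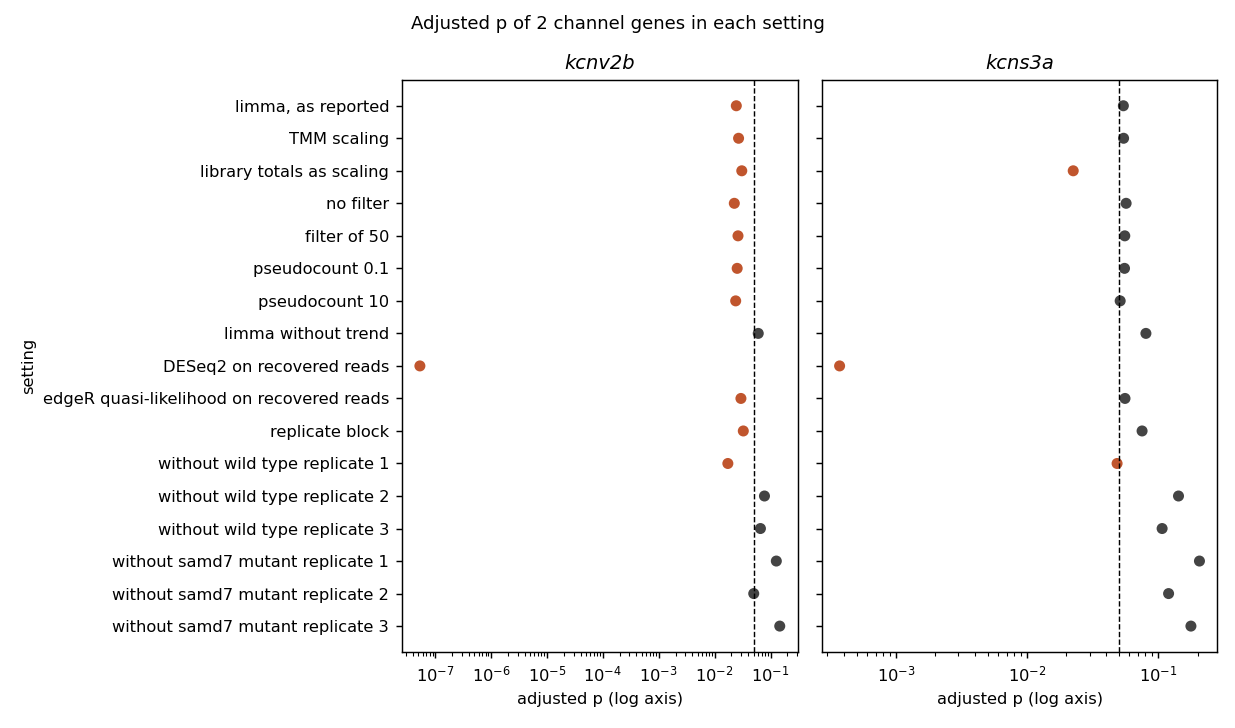
Adjusted p of kcnv2b and kcns3a, on a log axis, as reported and under each of the 16 alternatives, with the threshold of 0.05 dashed and calls in orange. The call of kcnv2b is lost in 6 of the 16, and kcns3a passes in 3. The stricter threshold of 0.01 is not among the 16, and kcnv2b as reported does not pass it.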

How the data were processed

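Whole-retina RNA-seq was compared between 3 samd7 mutant and 3 wild-type fish, with genotypes as labelled. Per the submitters' processing notes the tools were STAR 2.7.2b, Trim Galore 0.6.1, DESeq2 1.34.0, HTSeq 0.9.1 and R 4.1.3, on danRer10. Settings for strand and annotation are not stated there. The deposited signal values are gene read counts over a size factor for each library. All values (100%) were whole multiples of one step within 0.01 reads, so whole reads were recovered for count tests. The log2 fold changes and adjusted p-values of the authors' deposited table were only set beside the results.

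The main fit used limma 3.58.1 (R 4.3.3) with trend and robust moderation on log2(value + 1), keeping genes that reached 10 in 3 or more libraries. Paralog ratios were fitted in the same way over all pairs of symbols that differ by a final a or b. The alternatives were TMM and library-total scaling, other filters and pseudocounts, no trend, DESeq2 1.42.0, edgeR 4.0.16 (255 genes called), a replicate block, a stricter threshold and each library left out. Each tool was run on simulated data in which the spread beyond counting error was set alike for every gene. That run checked the code and does not give error rates for the channel genes. No library was a copy of another, as the chi-square of read counts over all 15 pairs of libraries was at least 58.7 for each degree of freedom.

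The members and the lists of partners and markers were chosen with earlier results of these data known. Genes were named if they passed the threshold, if they were of types known from photoreceptors, Müller glia or pigment epithelium, if they had 1 of the 2 smallest p in a subfamily, or if they changed by at least 1 log2 unit without overlap. Other named genes were chosen after their values were seen. The RefSeq table, of GRCz12tu, gave only names and which genes neighbour each other. Its coordinates are not printed, since the counts were made on danRer10, and no sequences were used here.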

Additional observations from a re-analysis of the deposited data

How the results depend on the processing

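Over all genes, 296 were called (94 higher, 202 lower). Library totals as the scaling gave 2128 (1987 higher, 141 lower), limma without trend 30, DESeq2 1183, an adjusted p of 0.01 gave 23, and leaving out one library gave 17 to 366. Channel genes called numbered 1, but 7 with library totals (kcnv2b lower, and kcns3a, kcnc3a, kcnk6, kcnn1a, kcnab2b and kcnma1a higher, 6 in all), 0 without trend, 2 with DESeq2, 0 at an adjusted p of 0.01 and 0 to 2 with one library left out. Partner genes called numbered 1, but 8 with library totals, 0 without trend, 5 with DESeq2, 0 at an adjusted p of 0.01 and 0 to 1 with one library left out. The channel and partner counts with library totals stand beside 2128 of 11367 genes tested, and 93.4% of those calls were higher. With DESeq2 they stand beside 10.2% of all genes. Library totals moved the median of all genes to 0.36 and that of the channel genes to 0.56. For the other alternatives the channel median was 0.14 to 0.36, a range chosen for report after the data were seen. With one library left out 25 to 33 channel genes were above 0, beside 50.4% to 51.7% of all genes.

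Of the 41 tested channel genes 11 turned sign with library totals, all of them to above 0 and none of them called; the genes outside the naming rule were added after the data were seen. These were kcnj13 at 0.27, kcnh1b at 0.10, kcnip1b at 0.25, kcnab1a at 0.11, kcnd3 at 0.25, kcnj11l at 0.29, kcnip3a at 0.31, kcnd2 at 0.26, kcnk15 at 0.33, kcnk18 at 0.24 and kcnk3a at 0.31. The change of kcnk15 (-0.01) also turned with a pseudocount of 10 (0.028), DESeq2 (0.24) and edgeR (0.26). With one library left out the genes that turned ranged from -0.29 to 0.33 for kcnj13, -0.027 to 0.59 for kcnh1a, -0.55 to 0.0084 for kcnh1b, -0.025 to 0.28 for kcnh2a, -0.27 to 0.072 for kcnip1b, -0.14 to 0.072 for kcnip3a, -0.20 to 0.44 for kcnq1, -0.20 to 0.66 for kcnd1, -0.29 to 0.092 for kcnd2, -0.27 to 0.085 for kcnd3, -0.21 to 0.11 for kcnj11l, -0.59 to 0.63 for kcnj1b, -0.43 to 0.67 for kcnk15, -0.27 to 0.067 for kcnk18, -0.44 to 0.36 for kcnk3a and -0.069 to 0.28 for kcnk9. Without wild-type replicate 1 alone 11 genes turned. The causes were not tested.

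The replicate numbers were not used to pair the fish in the main fit. Deviations of same-numbered libraries correlated across genes at 0.19, -0.14 and 0.23, and those of differently numbered libraries at -0.34 to 0.17. With 3 fish per genotype these values cannot decide whether the numbers pair the fish. With the replicate number as a block 289 genes and 1 channel gene were called. No channel paralog pair was called in any alternative run. For 24 of the 41 tested channel genes the 95% interval reached beyond a 2-fold change.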

Other observations

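One further potassium channel gene was in the table under a clone name outside the rule. The gene zgc:162160, which RefSeq names kcnj21, an inward rectifier, was at 61.3, 38.2 and 42.5 in wild type and 55.1, 64.9 and 41.5 in the mutants. The genotypes overlapped (log2 change 0.19, SE 0.30, adjusted p = 0.767 from limma).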
